A study of Mus musculus with 4 samples.

Results

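The subject is the group of ribosomal protein pseudogenes in cultured mouse bone marrow cells: the rows of an expression table whose symbol begins with Rpl or Rps, for the large or the small ribosomal subunit, and carries the suffix -ps. The rule found 144 members among 62046 rows, 89 named for large subunit proteins and 55 for small subunit proteins. Each was set beside its parent gene, the gene named by the symbol before -ps; 43 of the 44 parents had a row, so that 143 pseudogenes had a parent to compare (Rpl48 had none). The members were chosen by symbol alone, with no cutoff on a level, but the group was proposed with FPKM values of these 4 libraries in view, among them a low value of Rpl7a-ps3 in the knockout. That difference is therefore given as a description.

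The libraries came from bone marrow cells cultured with M-CSF, the cytokine that drives marrow progenitors towards macrophages, for 5 days. There were 2 libraries of total RNA from GM1082-/- (knockout) mice and 2 from wild-type mice, all M-CSF treated. The labels give neither strain, sex, age nor how the GM1082 allele was made, and leave unsaid whether each library had its own animal. P-values thus measure only the spread between these libraries, which may be technical.

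Ribosomal proteins are the protein subunits of the ribosome, and their mRNAs are among the most abundant in any growing cell. Such mRNAs have been copied back into the mammalian genome many times by retrotransposition. The copies, called processed pseudogenes, lack introns, are scattered over the chromosomes and often remain nearly identical in sequence to the mRNA of the parent. A short read from the mRNA can then match the pseudogene as well as the parent gene, so a value in a pseudogene row can hold reads of the parent mRNA, and the reverse. Every value below is uncertain for this reason, since the sources used here do not say how reads with several matches were placed. In bulk RNA, fewer cells of a type and less RNA per cell cannot be told apart.

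The 144 rows looked like intronless copies of coding sequences. All but 1 (Rpl29-ps2, at 5692 bp) spanned between 171 and 1214 bp, with a median over all members of 481.5 bp. In 101 of them, 70.1%, the span was a whole multiple of 3 bp, against 40.9% of the 2766 other Ensembl rows in that range of spans. The members lay on 20 chromosomes, with 70 on the plus and 74 on the minus strand. Chromosome X held 13, chromosome 1 held 12 and chromosome 16 held 2, and only 5 lay on the chromosome of their parent. RefSeq lists 136 of them as pseudogenes and 7 as transcribed pseudogenes; 1 had no match. Coordinates below are those of the table, on GRCm38: of 138 members matched to RefSeq by Entrez number, all had the same chromosome and 136 had both ends within 1 kb.

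Levels are given as FPKM, fragment numbers divided by the length of the gene and the depth of the library, as deposited by the authors. Because the members are single blocks, their FPKM values could be turned back into fragments. At the recovered depths, which round to 17700000 and 18100000 fragments in the knockout libraries, against 19100000 in each wild-type library, all 120 to 125 values above 0 per library fell within 0.01 of a whole number. Fragments had thus been assigned whole, with no fractional sharing between copies in these values. At the median span and the lowest depth, 3 fragments correspond to 0.353 FPKM. This floor covers counting error only.

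Expression was concentrated in a few members. The mean over the 4 libraries was at least 1 FPKM in 75 members, at least 10 in 26 and at least 100 in 5, with a median of 1.18 FPKM and a highest value of 309 FPKM. At the other end, 41 members were at 0 in at least 1 library and 16 were above 0 in a single library. The highest member held 15.03% to 16.75% of the summed FPKM of the group, and the 10 highest held 59.4% to 65.3%. Summed over the members with recovered fragments, the pseudogenes took 956 and 1102 FPM (fragments scaled per-million of the depth) in the knockout libraries, against 1105 and 1054 in the wild-type libraries. Their parents took 12570 and 13156 FPM in the knockout libraries, against 12990 and 13002 in the wild-type libraries. The pseudogenes therefore received 7.07% and 7.73% of the joint fragments in the knockout libraries, against 7.84% and 7.50% in the wild-type libraries; the first knockout library was the lowest.

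The large subunit member with the highest level was Rpl17-ps10 (chromosome 7, 72648757 to 72649311, minus strand, 555 bp), a copy of the gene of a protein that lies around the exit of the peptide tunnel. It had 293 and 332 FPKM in the knockout libraries, against 302 and 307 FPKM in the wild-type libraries. The groups overlapped, with means of 313 ± 27.5 and 305 ± 3.46 FPKM (SD, n = 2 each). Rpl17-ps3 (chromosome 12, 67510756 to 67511311, plus strand) had 92.2 and 214 FPKM in the knockout libraries, against 239 and 233 FPKM in the wild-type libraries. Its knockout libraries lay below both wild-type libraries, but they also differed from each other by 2.32-fold.

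Rpl14-ps1 had 106 and 114 FPKM in the knockout libraries, against 109 and 108 FPKM in the wild-type libraries. Rpl31-ps8 had 92.0 and 111 FPKM in the knockout libraries, against 110 and 109 FPKM in the wild-type libraries. Both kept to a narrow band in which the genotypes overlapped. The other large subunit members with a mean of at least 50 FPKM also had overlapping groups. Rpl28-ps1 had 54.8 and 73.1 FPKM in the knockout libraries, against 68.9 and 63.4 FPKM in the wild-type libraries. Rpl23a-ps3 had 61.0 and 52.4 FPKM in the knockout libraries, against 69.5 and 59.3 FPKM in the wild-type libraries. Neither of these separated the genotypes. Rpl9-ps6 had 49.98 and 70.0 FPKM in the knockout libraries, against 62.0 and 55.4 FPKM in the wild-type libraries. Rpl30-ps10, on chromosome X (71803688 to 71804034, plus strand), had 53.5 and 69.4 FPKM in the knockout libraries, against 62.6 and 26.1 FPKM in the wild-type libraries. Here the second wild-type library stood alone, 2.39-fold below the first.

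Among small subunit members, Rps10-ps2 (chromosome 16, 20822145 to 20822640, minus strand) had the highest level. It had 149 and 153 FPKM in the knockout libraries, against 156 and 144 FPKM in the wild-type libraries. Rps16-ps2 had 95.2 and 93.2 FPKM in the knockout libraries, against 98.8 and 102 FPKM in the wild-type libraries, a small separation with the knockout lower. Rps10 and Rps16, the parents, encode proteins of the head of the small subunit. Rps6-ps4 is a copy of the gene of the S6 protein, the ribosomal substrate of S6 kinase in mTOR signalling. It had 46.9 and 61.5 FPKM in the knockout libraries, against 67.0 and 59.7 FPKM in the wild-type libraries, and the groups overlapped. Rps12-ps3 had 63.1 and 61.9 FPKM in the knockout libraries, against 51.2 and 55.4 FPKM in the wild-type libraries, with both knockout libraries higher.

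**Figure D1:**
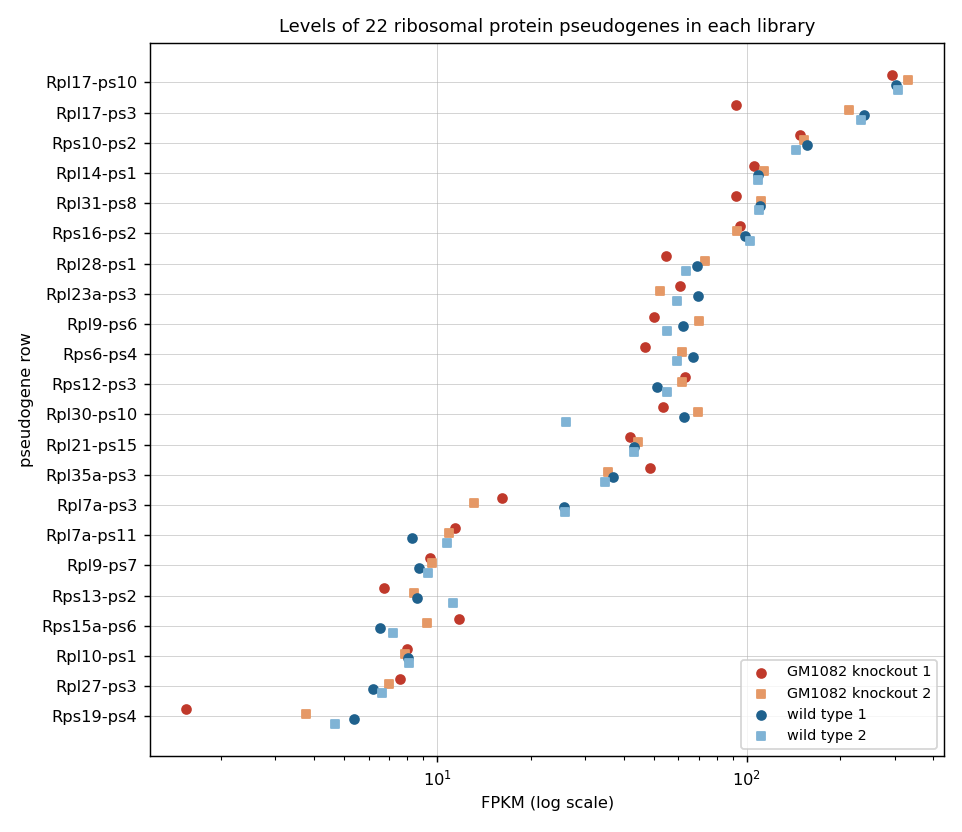
FPKM (log scale) of the 22 named pseudogenes in each of the 4 libraries, 1 point per library, with GM1082 knockout libraries in red and orange and wild-type libraries in blue. Most rows form tight groups of 4 points; Rpl17-ps3 has 1 low knockout library at 92.2 FPKM, Rpl30-ps10 has 1 low wild-type library at 26.1 FPKM, and both knockout points of Rpl7a-ps3 lie left of both wild-type points.

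Most pseudogenes were far below their parents. The median member stood at 1.14% of the FPKM of its parent, 69 were under 1% and 34 were at 10% or more. Of the 143, 5 exceeded the parent in every library: Rpl17-ps10, Rps10-ps2, Rpl30-ps10, Rpl21-ps15 and Rpl35a-ps3. In fragments, 0 members did so in every library. For Rpl17-ps10 and Rpl17-ps3 this rests on the first knockout library alone, the only one in which each was below Rpl17. FPKM divides by length, so the order of parent and copy can differ between FPKM and fragments.

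The exon length behind each parent's FPKM was recovered as the smallest length that gave whole fragments in all 4 libraries. It ranged from 404 to 6270 bp with a median of 2015 bp. As a check, the same search on 35 pseudogenes with at least 50 fragments returned the known span in 33; for the rest it returned a shorter length. The recovered length is thus the smallest that the values allow. It was 3400 bp of a 4143 bp span for Rpl21, 3526 of 3737 bp for Rpl35a and 3020 of 3136 bp for Rpl30. Most of the span of these loci was thus counted as exon, and the FPKM of the parent is divided by that length. A true length that is a multiple of the recovered one would give proportionally more parent fragments. For Rpl17 it was 775 bp of 2905 bp, and for Rps10 1937 bp of 6208 bp.

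Rpl21-ps15, on chromosome X (151215167 to 151215649, minus strand), had the largest ratio to its parent. It had 41.8 and 44.4 FPKM in the knockout libraries, against 43.1 and 43.2 FPKM in the wild-type libraries. Rpl21 itself had 6.79 and 13.0 FPKM in the knockout libraries, against 7.46 and 9.46 FPKM in the wild-type libraries. The pseudogene was thus at 616% and 340% of the parent in the knockout libraries, against 577% and 456% in the wild-type libraries. In fragments, the order differed: Rpl21-ps15 had 358 and 389 in the knockout libraries, against 397 and 398 in the wild-type libraries. Rpl21 had 409 and 805 fragments in the knockout libraries, against 484 and 614 in the wild-type libraries, above the pseudogene in each. The pseudogene varied little between libraries while the parent varied up to 1.92-fold.

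Rpl30-ps10 stood at 271% and 282% of Rpl30 in the knockout libraries, against 261% and 104% in the wild-type libraries. Rpl35a-ps3 stood at 304% and 196% of Rpl35a in the knockout libraries, against 269% and 252% in the wild-type libraries. The ratios of Rpl17-ps10 and Rps10-ps2, taken over the 4 libraries, were lower than these. Rpl17-ps10 stood at 105% and 241% of Rpl17 in the knockout libraries, against 185% and 225% in the wild-type libraries. Rps10-ps2 stood at 124% and 146% of Rps10 in the knockout libraries, against 151% and 130% in the wild-type libraries.

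**Figure D2:**
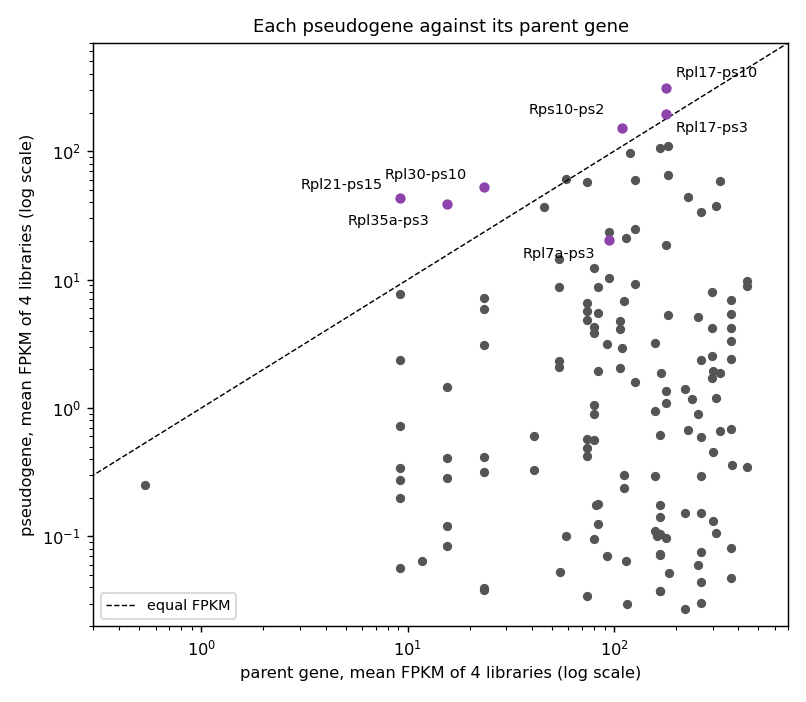
Mean FPKM over the 4 libraries of each pseudogene (vertical, log scale) against that of its parent gene (horizontal, log scale), for the 143 pseudogenes with a parent row. The dashed line marks equal FPKM; most points lie far below it, at a median of 1.14% of the parent, and the named purple points include the 5 that lie above their parent in every library.

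Within a family the parent and its copies could take different shares of the fragments from one library to the next, and the Rpl17 family gave the clearest case. Rpl17 received 3843 and 1941 fragments in the knockout libraries, against 2417 and 2017 in the wild-type libraries. Rpl17-ps3 received 908 and 2155 fragments in the knockout libraries, against 2533 and 2476 in the wild-type libraries. The library in which the parent was highest, the first knockout library, was the one in which Rpl17-ps3 was lowest. Rpl17-ps10 received 2884 and 3346 fragments in the knockout libraries, against 3201 and 3255 in the wild-type libraries.

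Summed over Rpl17 and its 6 pseudogenes, the family took 441 and 422 FPM in the knockout libraries, against 442 and 417 in the wild-type libraries. The sum thus varied by 1.06-fold over the 4 libraries, while the parent varied by 2.05-fold. The pseudogenes held 50.8% and 74.7% of the family in the knockout libraries, against 71.3% and 74.7% in the wild-type libraries. The log2 difference of Rpl17-ps3 was -0.75 with all libraries, -0.14 without the first knockout library and -1.35 without the second. Whether reads moved between the rows of the family was not tested, as the reads were not used here.

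**Figure D3:**
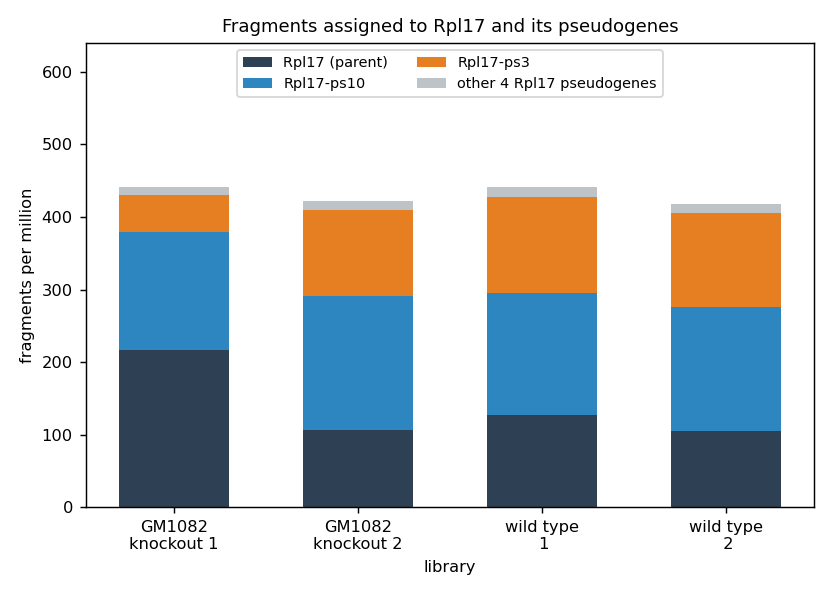
FPM (depth-scaled fragments) (vertical, linear from 0) assigned to Rpl17 and its pseudogenes, stacked for each library, with GM1082 knockout libraries left of wild-type libraries. The total height is between 417 and 442 in all 4 libraries, while the Rpl17 segment is tallest and the Rpl17-ps3 segment shortest in the first knockout library.

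The Rpl7a family did not have a sum as even, at 1.39-fold over the 4 libraries. Rpl7a, which encodes a large subunit protein that binds ribosomal RNA, had 78.3 and 111 FPKM in the knockout libraries, against 99.4 and 90.8 FPKM in the wild-type libraries. Rpl7a-ps3 (chromosome 15, 36308149 to 36308944, minus strand, 796 bp) had 16.2 and 13.2 FPKM in the knockout libraries, against 25.6 and 25.9 FPKM in the wild-type libraries. Both knockout libraries were below both wild-type libraries, at means of 14.7 ± 2.13 and 25.8 ± 0.220 FPKM (SD, n = 2 each). The values rested on 228 and 190 fragments in the knockout libraries, against 389 and 394 in the wild-type libraries.

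The other copies of Rpl7a did not share that order. Rpl7a-ps5 received 244 and 498 fragments in the knockout libraries, against 377 and 276 in the wild-type libraries, so its groups overlapped and its knockout libraries differed by 1.99-fold. Rpl7a-ps11, on chromosome X, received 162 and 158 fragments in the knockout libraries, against 127 and 164 in the wild-type libraries. Scaled by depth, it took 9.14 and 8.71 FPM in the knockout libraries, against 6.66 and 8.59 in the wild-type libraries. On that scale both knockout libraries were above both wild-type libraries. Together the 3 copies held 20.4% and 19.1% of the family's fragments in the knockout libraries, against 20.9% and 21.3% in the wild-type libraries, a smaller separation than that of Rpl7a-ps3 alone.

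In the Rpl30 family it was the second wild-type library that stood apart. Rpl30-ps10 received 329 and 437 fragments in the knockout libraries, against 414 and 173 in the wild-type libraries. Rpl30-ps8 received 35 and 51 fragments in the knockout libraries, against 43 and 21 in the wild-type libraries. Rpl30-ps1 received 44 and 37 fragments in the knockout libraries, against 73 and 31 in the wild-type libraries. These 3, the most abundant of its 8 pseudogenes, were lowest in the second wild-type library, whereas Rpl30 had its highest count there, with 1057 and 1351 fragments in the knockout libraries, against 1381 and 1446 in the wild-type libraries. The next in abundance, Rpl30-ps3, had another order, with 24 and 22 fragments in the knockout libraries, against 16 and 17 in the wild-type libraries. The remaining copies had at most 4 fragments in any library. The pseudogene share of the family was 29.2% and 29.0% in the knockout libraries, against 28.5% and 14.6% in the wild-type libraries. Scaled by depth, Rpl30 took 59.6 and 74.4 FPM in the knockout libraries, against 72.4 and 75.8 in the wild-type libraries. Its pseudogenes took 24.6 and 30.5 FPM in the knockout libraries, against 28.8 and 12.9 in the wild-type libraries. The family sum was 84.2 and 104.9 FPM in the knockout libraries, against 101.3 and 88.7 in the wild-type libraries. That sum varied by 1.25-fold over the 4 libraries. The log2 difference of Rpl30-ps10 was 0.58 with all libraries, -0.04 without the second wild-type library and 1.19 (adjusted p = 0.139) without the first.

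In the Rps12 family, the parent and its most abundant copy, Rps12-ps3, separated by genotype in opposite directions. The groups of Rps12-ps4, Rps12-ps9 and Rps12-ps19 overlapped. Rps12, a small subunit protein gene, had 68.9 and 64.3 FPKM in the knockout libraries, against 82.7 and 79.9 FPKM in the wild-type libraries. Its 8 pseudogenes, led by Rps12-ps3, held 21.8% and 22.5% of the family's fragments in the knockout libraries, against 16.05% and 17.8% in the wild-type libraries. They took 38.9 and 37.9 FPM in the knockout libraries, against 32.0 and 35.1 in the wild-type libraries. The parent took 139.7 and 130.4 FPM in the knockout libraries, against 167.6 and 162.0 in the wild-type libraries. The family sum was thus also lower in the knockout, at 178.6 and 168.3 FPM, against 199.7 and 197.1 in the wild type. Neither Rps12 nor Rps12-ps3 passed the test given below. In the Rps16 family the share was even, at 21.8% and 22.5% in the knockout libraries, against 21.8% and 22.6% in the wild-type libraries. The Rpl14 family was likewise even, with a share of 19.3% and 18.6% in the knockout libraries, against 19.0% and 19.5% in the wild-type libraries.

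**Figure D4:**
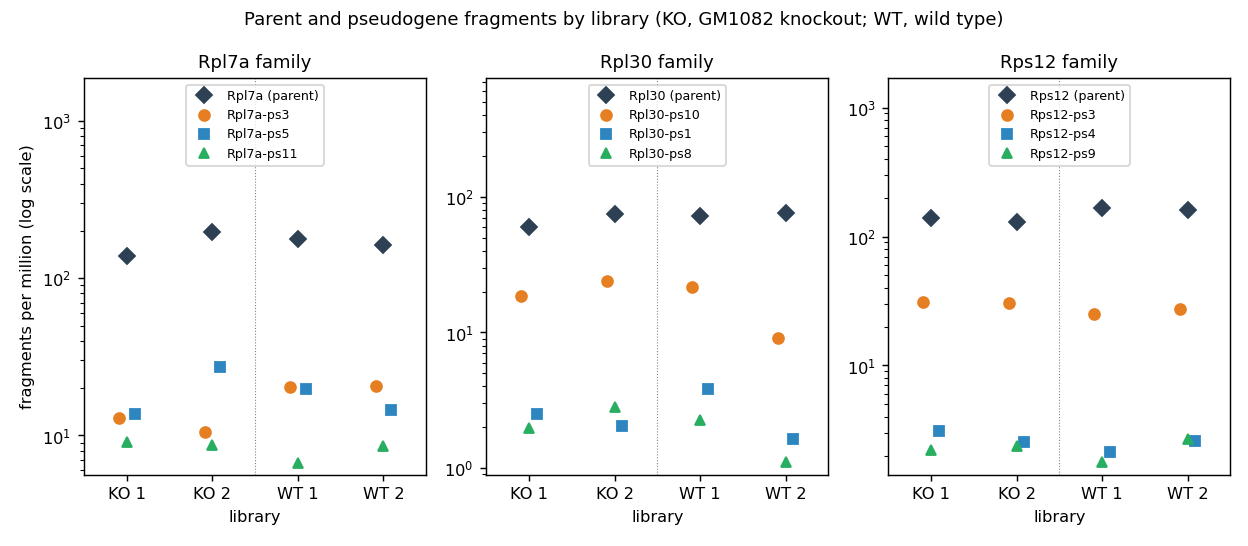
FPM (depth-scaled fragments) (log scale) in each library for the parent and its 3 most abundant pseudogenes in the Rpl7a, Rpl30 and Rps12 families, with GM1082 knockout libraries left of the dotted line and wild-type libraries right of it. Rpl7a-ps3 is lower in both knockout libraries, the 3 Rpl30 copies shown, of 8, are lowest in the second wild-type library, and Rps12 is lower in both knockout libraries while Rps12-ps3 is higher.

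Some members were uneven between libraries of 1 genotype. Among the 43 members that averaged 5 FPKM or more, 3 differed by more than 1.5-fold between the knockout libraries (6.98%, against 5.89% of 10754 rows at that level). Between the wild-type libraries 4 did so (9.30%, against 4.29%). They were Rpl17-ps3, Rpl7a-ps5 and Rpl36-ps2 in the knockout, and Rpl30-ps10, Rpl30-ps1, Rpl30-ps8 and Rps19-ps6 in the wild type.

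To ask which pseudogenes differed with the genotype, all 24535 rows that averaged 1 FPKM or more were fitted together with limma on log2(FPKM + 1), and p-values were adjusted over all of them by the method of Benjamini and Hochberg. The 75 members at that level were tested, and 69 were not. Of the 75, 0 passed an adjusted p of 0.05, where 0.0122% of all rows tested did so (3 rows). The smallest adjusted p of a member was 0.456, for Rpl7a-ps3, whose low knockout values were in view when the group was proposed. At an unadjusted p under 0.05 there were 6 members, 4 higher and 2 lower in the knockout, where 5.36% of all rows were past it. The higher ones were Rps15a-ps6, Rpl30-ps3, Rpsa-ps2 and Rps13-ps4, and the lower ones Rpl7a-ps3 and Rps19-ps4. Rps13-ps4, named after its values were seen, had the largest of the higher differences at log2 0.61 (SE 0.18, adjusted p = 0.812). It had 2.10 and 3.02 FPKM in the knockout libraries, against 1.38 and 1.26 FPKM in the wild-type libraries, and the groups did not overlap. The median log2 difference, knockout minus wild type, was -0.02 over the pseudogenes and -0.01 over all rows tested, with 35 members higher and 40 lower in the knockout.

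Groups that did not overlap were found in 19 of the 75 members (25.3%), where 30.9% of all rows tested were so placed. In 9 the knockout was higher (13.2% of all rows) and in 10 lower (17.7% of all rows). These shares were near or under the background, and nothing about the pseudogenes can be read from them. A two-sided exact permutation of 2 against 2 libraries has 0.3333 as its smallest p, so none was made for single members.

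Rpl7a-ps3, whose low knockout values were known when the group was proposed, had a log2 difference of -0.78 (SE 0.13). It was among the members that did not pass. Over the leave-outs its difference ranged from -0.92 to -0.64, which describes the same libraries and adds no support. The parent Rpl7a had a log2 difference of -0.03 (SE 0.18, adjusted p = 1.00). Rps19-ps4 had 1.55 and 3.77 FPKM in the knockout libraries, against 5.39 and 4.67 FPKM in the wild-type libraries, on 12 to 45 fragments a library. It is named only through its wild-type mean, which was just over the 5 FPKM that the naming rule asks of the higher group, so its log2 difference of -0.79 is a description. That difference was -0.33 without the first knockout library and -1.24 without the second. It lies within Lars, the cytoplasmic leucyl-tRNA synthetase gene, on the opposite strand. Lars had 30.4 and 37.7 FPKM in the knockout libraries, against 40.1 and 41.5 FPKM in the wild-type libraries, in the same order of genotypes; its part in the value of Rps19-ps4 was not tested.

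Rps15a-ps6 (chromosome 11, 6172644 to 6173036, minus strand) had 11.8 and 9.25 FPKM in the knockout libraries, against 6.54 and 7.20 FPKM in the wild-type libraries. The groups did not overlap, with a log2 difference of 0.54 (SE 0.15, adjusted p = 0.748) on 49 to 82 fragments a library. RefSeq lists it as a transcribed pseudogene, and it lies on the strand of Nudcd3. Nudcd3 had 5.90 and 5.91 FPKM in the knockout libraries, against 5.80 and 5.89 FPKM in the wild-type libraries, values that barely differed. Rps12-ps3 had a log2 difference of 0.23 (SE 0.11, adjusted p = 0.994), while Rps12 had -0.28 (SE 0.11, adjusted p = 0.887).

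The remaining separated members named by size had small differences. Rpl7a-ps11 (log2 difference 0.22), Rpl27-ps3 (0.16) and Rpl9-ps7 (0.07) were higher in the knockout, at adjusted p = 1.00 each. Rps13-ps2 (-0.34), Rps16-ps2 (-0.09) and Rpl10-ps1 (-0.03) were lower, at adjusted p = 1.00 each. Single libraries moved several of these: over the leave-outs, Rpl7a-ps11 ranged from 0.05 to 0.38, with its lowest value without the first wild-type library. Rpl9-ps7 ranged from 0.03 to 0.12, lowest without the same library. Rpl27-ps3 ranged from 0.11 to 0.22, lowest without the first knockout library. Rps13-ps2 ranged from -0.52 to -0.17, nearest 0 without the second wild-type library. Rpl10-ps1 showed how small a separation can be, with 7.96 and 7.86 FPKM in the knockout libraries, against 8.05 and 8.12 FPKM in the wild-type libraries. Rps13-ps2 had 6.73 and 8.39 FPKM in the knockout libraries, against 8.57 and 11.2 FPKM in the wild-type libraries.

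The parents gave a like picture. Of the 43 parents, 42 were tested and 0 passed the adjusted threshold, with 1 higher (Rpl35a, log2 difference 0.29, adjusted p = 0.932) and 1 lower (Rps12) at an unadjusted p under 0.05. Their median log2 difference was -0.02. The difference of a pseudogene minus that of its parent had a median of -0.02 over 75 pairs. Of all 79 ribosomal protein genes listed, 77 were tested and 0 passed (4 higher and 1 lower at an unadjusted p under 0.05), with 39 higher and 38 lower in the knockout and a median log2 difference of 0.00. By subunit, 46 large subunit genes had 23 higher and 23 lower, and 31 small subunit genes had 16 higher and 15 lower.

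**Figure D5:**
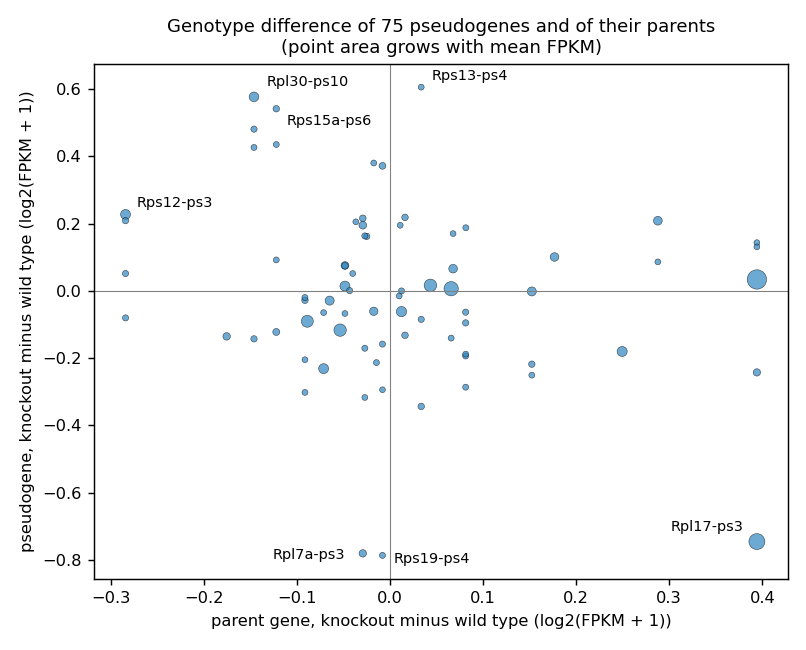
Log2 difference, knockout minus wild type, of each of the 75 tested pseudogenes (vertical) against that of its parent (horizontal), both on the log2(FPKM + 1) scale; the area of a point grows with the mean FPKM of the pseudogene. Most points lie near 0 on both axes; Rpl17-ps3 (-0.75) is paired with the parent Rpl17 at 0.39, and Rpl7a-ps3 and Rps19-ps4 have parents close to 0.

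Position relative to other genes was a feature the selection did not use. Of the 144 members, 94 overlapped no other row, 34 overlapped only rows on the opposite strand and 16 overlapped a row on their own strand. The median of the mean FPKM was 0.612 in the 94 with no overlap, 4.49 in the 34 with opposite-strand rows and 1.13 in the 16 with same-strand rows. Whether reads of the overlapping gene entered these values was not tested, and whether counting used strand is not given in the sources used here. Several of the highest members (Rpl17-ps10, Rpl17-ps3, Rps10-ps2 and Rpl31-ps8) overlapped no other row. Of the 12 highest, Rpl14-ps1 lay opposite Trpm4 and Rps16-ps2 opposite Adgrd1, rows with means of 0.886 and 0.008 FPKM. Rpl28-ps1 lay opposite Zranb3 (mean 1.86 FPKM) and Rps12-ps3 opposite Pdzd8 (mean 31.3 FPKM).

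Rpl35a-ps3 (chromosome 17, 29136972 to 29137304, minus strand) lies within Rab44, which is on the plus strand. It had 48.6 and 35.6 FPKM in the knockout libraries, against 37.0 and 34.8 FPKM in the wild-type libraries. Rab44, the gene of a large Rab GTPase, had 147 and 93.3 FPKM in the knockout libraries, against 110 and 94.2 FPKM in the wild-type libraries. Both were highest in the first knockout library and next highest in the first wild-type library. Rps12-ps3, in contrast, lies opposite Pdzd8, which had 30.7 and 32.0 FPKM in the knockout libraries, against 31.2 and 31.4 FPKM in the wild-type libraries, without the separation seen in the pseudogene.

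Of the 7 members that RefSeq lists as transcribed, 3 are among the highest (Rpl17-ps10, Rpl14-ps1 and Rps6-ps4). Rps15a-ps4, named outside the rule because it is known as Lethe, a noncoding RNA that binds and inhibits NF-kB in mouse cells, was much lower. It had 2.81 and 2.09 FPKM in the knockout libraries, against 2.72 and 0.731 FPKM in the wild-type libraries, and the groups overlapped.

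Facts of the libraries as a whole bear on these comparisons. GM1082 was matched through RefSeq, where it is a synonym of Arhgap33os, to a row on chromosome 7. That row had 0.0639 and 0.0624 FPKM in the knockout libraries, against 0.0792 and 0.0198 FPKM in the wild-type libraries. The groups overlapped, so these low values show no loss in the knockout. Whether the allele removes this transcript was not tested. All 6 macrophage markers were above 0, with a summed level of 438 and 458 FPKM in the knockout libraries, against 464 and 447 FPKM in the wild-type libraries. All 8 neutrophil markers were higher on average in the knockout, with sums of 21049 and 18167 FPKM in the knockout libraries, against 16998 and 16009 FPKM in the wild-type libraries, and 0 of the 8 passed the adjusted threshold (3 had an unadjusted p under 0.05). S100a8 and S100a9 made up most of these sums, and for Ngp, Camp and Ltf the second knockout library was below both wild-type libraries. In every library the neutrophil sum was far above the macrophage sum. The 5 B cell markers summed to 163 and 129 FPKM in the knockout libraries, against 108 and 163 FPKM in the wild-type libraries. The 5 erythroid markers summed to 11.4 and 11.1 FPKM in the knockout libraries, against 13.4 and 14.96 FPKM in the wild-type libraries. The 4 T cell markers summed to 0.810 and 1.36 FPKM in the knockout libraries, against 0.648 and 1.17 FPKM in the wild-type libraries. The part of these cells in the pseudogene values was not tested.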

How the data were processed

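The authors deposited 1 table of FPKM values per row and library. Bowtie 0.12.2 and the build mm9 are named, per the submitters' processing notes, but the row positions match GRCm38. How fragments were counted, whether strand was used and where reads with several matches went is not given in the sources used here. Members and gene lists were chosen with earlier results of these data known.

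Rows averaging 1 FPKM or more were fitted on log2(FPKM + 1) with limma (version 3.58.1, R 4.3.3), moderated along a mean-variance trend. That scale understates changes of low rows. The method was run on simulated data whose changes were larger than that of any member tested here. That run does not show how often changes as small as those of the members would be found. Fragments were recovered as FPKM times span times the library's depth, with the depth found as the value making fragments whole to within 0.01. Because parent exon lengths are recovered and not given, no count model was used. Figures were drawn with matplotlib 3.10.9, and tables made with Python 3.11.15, numpy 2.4.6, pandas 2.3.3 and scipy 1.17.1.

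Named were the 12 pseudogenes with the highest mean FPKM, up to 6 per direction with the largest log2 difference among those with separated groups and at least 5 FPKM as the mean of the higher group, Rpl7a-ps3, those above the parent in every library, and the parents of these. Other members were named after their values were seen. The alternatives tried were quantile normalization or median-of-ratios scaling, leaving out each library, a block for the replicate number, variance moderation with no trend or robustly, a pseudocount of 0.1, and a filter at 0.1 or 5 FPKM or none. The recovered depths, 17700000 to 19100000 fragments, set the counting error. Of 321 RefSeq symbols of the same pattern, 143 were in the table by symbol, and the others were not analysed here.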

Additional observations from a re-analysis of the deposited data

How the results depend on the processing

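Under all 13 alternatives the number of pseudogenes and of parents past the adjusted threshold was 0; the smallest adjusted p of a named pseudogene was 0.139, for Rpl30-ps10 without the first wild-type library. The number of all rows past it, 3 as reported, was 0 with a filter of 0.1 FPKM or no filter, and 0 to 24 when 1 library was left out (0 without either knockout library, 12 without the first and 24 without the second wild-type library). With the replicate block it was 6. The replicate numbers are not known to mark a shared source, and the block changed no call of a pseudogene or parent. Over the rows tested, deviations of same-numbered libraries from their group means correlated at 0.0509. The median log2 difference of the pseudogenes, -0.0153, was -2.11e-05 with a filter of 0.1 FPKM, -0.000556 with a filter of 5 FPKM, 0.00370 with no filter, -0.0373 after quantile normalization and -0.0369 to 0.0179 with 1 library left out. The median of pseudogene minus parent, -0.0191, was -0.000344 with no filter, 0.0253 after quantile normalization and -0.0219 to 0.00509 with 1 library left out. The cause of these sign changes was not tested; the medians are near 0 throughout. Members with groups that do not overlap, 19 as reported, numbered 33 of 118 with a filter of 0.1 FPKM, 10 of 43 with a filter of 5 FPKM and 39 of 144 with no filter. The share of all rows at these filters was not computed, so nothing is read from these counts. Of 285 values of named pseudogenes under alternatives, 16 changed sign. Depth limits the members under 1 FPKM, where a value rests on few fragments.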
